A study of Mus musculus with 59 samples.

Results

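The solute carrier family 25 (*Slc25a*) genes encode carriers that move metabolites across the inner mitochondrial membrane. The set examined here comprised all 46 protein-coding RefSeq genes of the mouse genome build mm10 whose symbols begin with *Slc25a*, apart from *Slc25a20*, out of 21774 protein-coding genes in all. A ChIP-seq peak was assigned to the gene with the nearest transcription start site (TSS) of a RefSeq mRNA, if its center lay within 100 kb of that TSS. By this rule 34 of the 46 genes had a peak in at least 1 of 7 lists, without a matching share of all genes to set beside it. The rule uses symbols and positions, not measured values, but it was set with earlier results of these data known. *Slc25a17* encodes a carrier of the peroxisome and *Slc25a46* a protein of the outer mitochondrial membrane, so the symbol does not mark inner membrane carriers alone.

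Chromatin from whole mouse liver was immunoprecipitated with antibodies against the transcriptional repressor BCL6 and the lipid-sensing nuclear receptors PPARα and PPARδ, to compare binding in the fed and the fasted liver. 6 of the 7 peak lists were from wild-type C57BL/6 mice, either fed ad libitum or fasted overnight, with 1 list for each factor and feeding state. The seventh list was BCL6 in fed *Bcl6* fl/fl mice of the same strain, the floxed controls without Cre of a hepatocyte knockout made with Albumin-cre. Each list combined 3 biological replicates, 21 of the 59 samples in the series, and the ages of the mice are not given in the sources used here. The lists hold only positions, with no read depth, peak height or replicate value, so that no test over replicates could be made. All intervals below are 95% Wilson confidence intervals, which cover counting error only, and the carrier genes are set beside all genes as a description.

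Mitochondrial carriers exchange adenine nucleotides, phosphate, amino acids, carboxylates and cofactors between the cytosol and the matrix. In the liver they link fatty acid oxidation, the urea cycle and gluconeogenesis, which run partly inside and partly outside the mitochondrion. PPARs bind DNA with RXR at direct repeats of AGGTCA spaced by 1 bp (DR1), and are known as activators of mitochondrial and peroxisomal fatty acid oxidation, whereas BCL6 recruits corepressors and binds elements such as TTCCTAGAA.

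Peaks with centers within 200 bp of each other were joined into sites, and 136 of the 38462 sites of the 6 C57BL/6 lists were assigned to 33 carrier genes. Unless *Bcl6* fl/fl livers are named, the factors and feeding states given for a site are those of the C57BL/6 lists. A site held a factor if that factor was called there in either feeding state. Factors held by the same site were therefore not always called in the same state. The sequences below are windows of 200 bp at the sites that were called for all 3 factors, appeared in the most lists and held a match to either element. They are shown because BCL6, PPARα and PPARδ were all called on the same short stretch of DNA beside these carrier genes. Capitals mark the match with the fewest mismatches. It is to DR1 with up to 2 mismatches in its 12 fixed bases in the first 5 windows. In the last it is to the BCL6 element TTCCTAGAA with up to 1 mismatch. The *Slc25a13* window held 2 DR1 matches, which overlap, and only the closer match is marked. All windows are printed from the plus strand of mm10, so that a match on the minus strand reads as copies of TGACCT, and none of the windows overlapped an annotated exon of a protein-coding gene.
*Slc25a30*, 16138 bp upstream of the TSS, chr14:75803076-75803275: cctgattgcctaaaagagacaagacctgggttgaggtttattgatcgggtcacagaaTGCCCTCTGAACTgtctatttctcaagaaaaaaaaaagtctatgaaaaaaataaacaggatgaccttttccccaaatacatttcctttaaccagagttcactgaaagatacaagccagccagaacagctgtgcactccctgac
*Slc25a13*, 2586 bp upstream, chr6:6219791-6219990: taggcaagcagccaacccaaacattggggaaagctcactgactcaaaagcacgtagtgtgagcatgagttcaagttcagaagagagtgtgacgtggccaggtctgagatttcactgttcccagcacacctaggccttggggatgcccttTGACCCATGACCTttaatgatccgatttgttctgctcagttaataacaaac
*Slc25a10*, 18318 bp downstream, chr11:120510056-120510255: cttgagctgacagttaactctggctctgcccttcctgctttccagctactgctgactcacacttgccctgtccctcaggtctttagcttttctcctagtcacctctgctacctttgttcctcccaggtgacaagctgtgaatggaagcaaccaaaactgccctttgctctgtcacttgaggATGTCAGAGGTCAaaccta
*Slc25a25*, 4522 bp downstream, intron 4, chr2:32419445-32419644: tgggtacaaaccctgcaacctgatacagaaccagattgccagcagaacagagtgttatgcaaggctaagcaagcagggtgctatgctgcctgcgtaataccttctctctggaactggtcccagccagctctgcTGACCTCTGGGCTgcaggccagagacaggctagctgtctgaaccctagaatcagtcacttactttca
*Slc25a47*, 625 bp downstream, chr12:108850359-108850558: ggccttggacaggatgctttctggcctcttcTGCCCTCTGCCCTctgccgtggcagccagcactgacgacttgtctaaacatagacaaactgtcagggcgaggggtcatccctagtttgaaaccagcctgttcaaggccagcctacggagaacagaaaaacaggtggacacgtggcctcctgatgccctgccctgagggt
*Slc25a30*, 3623 bp upstream, chr14:75790561-75790760: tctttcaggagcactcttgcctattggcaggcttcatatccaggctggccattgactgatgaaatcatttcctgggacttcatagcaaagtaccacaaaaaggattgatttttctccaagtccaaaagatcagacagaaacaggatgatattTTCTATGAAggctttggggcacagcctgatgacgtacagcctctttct

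The first of these windows, upstream of *Slc25a30*, was at a site called in all 7 lists, and the other 5 were at sites called in 6. The marked matches beside *Slc25a13* and *Slc25a10* differed from DR1 at 1 base and the other marked DR1 matches at 2. The BCL6 element match beside *Slc25a30* differed from that element at 1. A match of this kind is a description of the letters and does not show which protein touched them.

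PPARα was the factor with the most peaks beside the carriers. In fasted livers 108 PPARα peaks lay nearest to 32 of the 46 genes, or 69.6% (55.2% to 80.9%), where 43.4% of all protein-coding genes had a peak in that list. In fed livers 91 PPARα peaks lay nearest to 26 genes, or 56.5% (42.2% to 69.8%), beside 32.2% of all genes. For BCL6 in C57BL/6 livers, 49 fed peaks were nearest to 17 carrier genes, 37.0% (24.5% to 51.4%) beside 26.0% of all genes. The 29 fasted BCL6 peaks were nearest to 16 carrier genes, 34.8% (22.7% to 49.2%) beside 19.1%. PPARδ had 37 fed peaks at 16 genes, 34.8% (22.7% to 49.2%) beside 17.1%, and 12 fasted peaks at 9 genes, 19.6% (10.7% to 33.2%) beside 7.79%. BCL6 in fed *Bcl6* fl/fl livers had 65 peaks at 23 carrier genes, 50.0% (36.1% to 63.9%) beside 28.8% of all genes.

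The carriers thus had a higher share of genes with a peak than all genes in each of the 7 lists, but this difference was not tested. For fed C57BL/6 BCL6 the interval of the carriers held the share of all genes. The stretch of genome closest to a carrier TSS and within 100 kb of it averaged 57.8 kb per gene, against 74.6 kb over all genes. Per Mb of this nearest genome, the carriers had 40.6 PPARα peaks in fasted livers against 15.9 over all genes, and 18.4 fed C57BL/6 BCL6 peaks against 7.97. The 342 other *Slc* genes, mostly transporters of the plasma membrane and other organelles, had a PPARα peak in fasted livers at 55.0% of genes (49.7% to 60.2%) and a fed C57BL/6 BCL6 peak at 37.1% (32.2% to 42.4%). The 49 *Nduf* genes, which encode subunits and assembly factors of respiratory complex I, had these peaks at 46.9% (33.7% to 60.6%) and 14.3% (7.10% to 26.7%) of genes. Their nearest genome averaged 35.3 kb per gene, and that of the other *Slc* genes 86.2 kb. Per Mb, fasted PPARα peaks numbered 21.9 at the other *Slc* genes and 19.1 at the *Nduf* genes, and fed C57BL/6 BCL6 peaks 12.0 and 6.93.

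**Figure D1:**
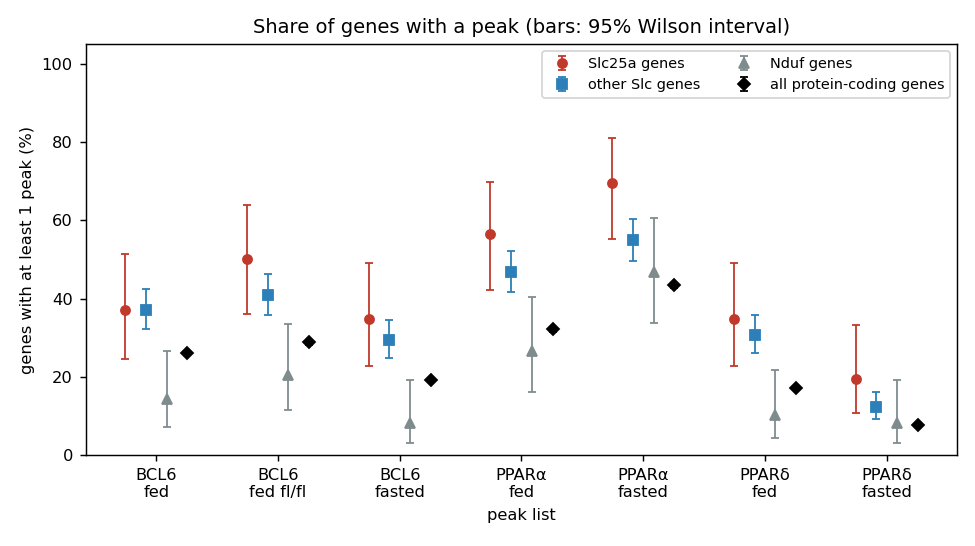
Share of genes with at least 1 peak within 100 kb (y axis, percent) in each of the 7 lists (x axis), for 46 *Slc25a* genes, 342 other *Slc* genes, 49 *Nduf* genes and all 21774 protein-coding genes, with 95% Wilson intervals as bars. The *Slc25a* genes ran from 19.6% in the fasted PPARδ list to 69.6% in the fasted PPARα list, and their intervals overlapped those of the other *Slc* genes in every list.

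Binding was spread unevenly over the family. *Slc25a13* and *Slc25a33* had 14 sites each, *Slc25a42* had 10 and *Slc25a17* had 9, so that these 4 genes held 47 of the 136 sites, or 34.6%. Among the 33 genes with a site the median was 3 sites, 12 genes had 5 or more, and 9 had 1. The 12 genes without a peak in any list included *Slc25a2*, *Slc25a4*, *Slc25a16*, *Slc25a18*, *Slc25a24*, *Slc25a29*, *Slc25a35*, *Slc25a40*, *Slc25a41*, *Slc25a53* and *Slc25a54*. *Slc25a12*, the aspartate/glutamate carrier of muscle and brain, had a single peak, of BCL6 in fed *Bcl6* fl/fl livers. Its liver counterpart *Slc25a13* shared the highest number of sites with *Slc25a33*. It also had the longest stretch of nearest genome, 200 kb, so that per 100 kb of this stretch it had 7.0 sites, against 16.3 for *Slc25a33*, 32.9 for *Slc25a42* and 33.7 for *Slc25a22*.

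**Figure D2:**
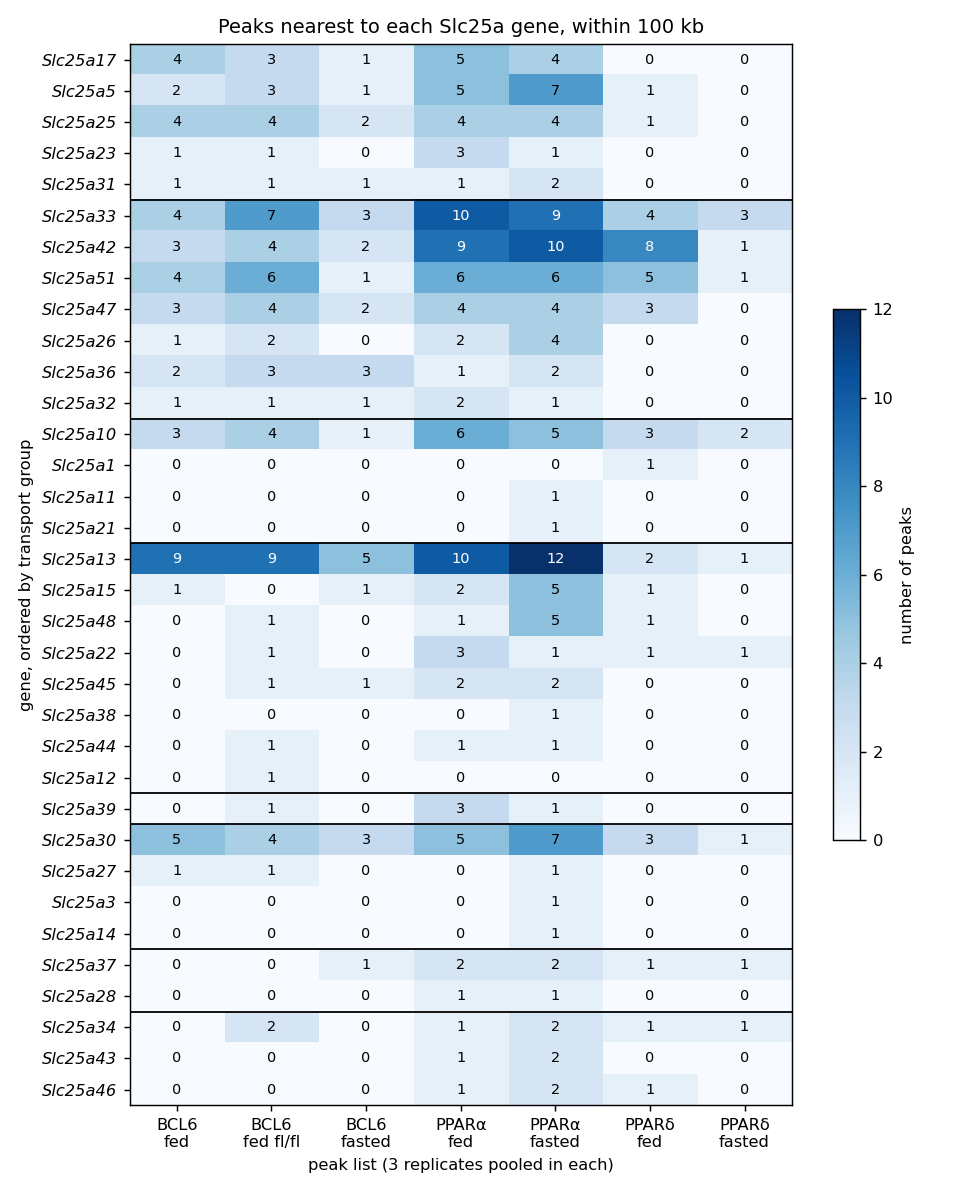
Number of peaks nearest to each of the 34 *Slc25a* genes with a peak (rows, ordered by transport group, with lines between groups) in each list (columns). *Slc25a13* had 12 peaks of PPARα in fasted livers, the highest count in the plot, and *Slc25a42* had 8 peaks of PPARδ in fed livers and 1 in fasted livers.

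The cofactor and pyrimidine nucleotide carriers had the most sites, 45 at 7 of 9 genes. *Slc25a42* encodes the coenzyme A carrier. Its 10 sites were all called for PPARα, with 9 PPARα peaks in fed and 10 in fasted livers, whereas PPARδ had 8 fed peaks and 1 fasted peak. With the 2 feeding states pooled, 8 of its 10 sites held PPARα and PPARδ, and 3 of these also held BCL6. BCL6 had 3 fed and 2 fasted peaks at *Slc25a42*. At the site 8310 bp upstream, in an exon of neighboring *Armc6*, PPARα was called solely in fasted and PPARδ solely in fed livers. 1 BCL6 site in intron 1, 14529 bp downstream of the TSS, was called only in fasted livers, while PPARδ was called there only in fed livers.

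*Slc25a33*, a carrier of pyrimidine nucleotides, had 10 fed and 9 fasted PPARα peaks, 4 fed and 3 fasted BCL6 peaks, and 4 fed and 3 fasted PPARδ peaks. Its 14 sites included 1 within 10 bp of the TSS and 13 upstream, at 1154 bp to 42514 bp. The site 16858 bp upstream was called in all 7 lists. The most distant site was the only fasted-only PPARδ site without another factor in the family.

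*Slc25a51* encodes the mitochondrial NAD carrier and had 8 sites, 4 of which held all 3 factors. BCL6 had 4 fed peaks and 1 fasted peak there, PPARδ had 5 and 1, and PPARα had 6 in either state. The site called in all 7 lists lay 4929 bp upstream. 5 of the 8 sites, from 38451 bp to 58735 bp upstream, lay in introns of the neighboring gene *Shb*, to which they could equally belong.

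*Slc25a47*, a carrier expressed chiefly in liver, had 5 sites within 6587 bp of an annotated TSS, 3 of them at its promoters. BCL6 had 3 fed and 2 fasted peaks there, PPARα had 4 in either state, and PPARδ had 3 fed peaks and 0 fasted peaks. The DR1 match at the promoter site 625 bp downstream is among the sequences above. *Slc25a26*, the carrier of S-adenosylmethionine, had 4 sites in intron 5, at 15572 bp to 24650 bp downstream, with 2 fed and 4 fasted PPARα peaks and 1 fed BCL6 peak. *Slc25a36*, a pyrimidine nucleotide carrier, was the only gene of the group with more BCL6 peaks fasted (3) than fed (2), and *Slc25a32*, a folate carrier, had 1 site of BCL6 and PPARα in intron 1 that was called in both states.

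Amino acid carriers had 31 sites at 7 of 11 genes. *Slc25a13* encodes citrin, which exchanges mitochondrial aspartate for glutamate and supplies the urea cycle. It had 9 fed and 5 fasted BCL6 peaks, 10 fed and 12 fasted PPARα peaks, and 2 fed peaks and 1 fasted peak of PPARδ. The farthest lay 80219 bp upstream and 31622 bp downstream. 7 of its 14 sites held BCL6 and PPARα together. The site 14552 bp downstream in intron 1 was called in all 7 lists, and the 2 most distant upstream sites held PPARα solely in the fasted state.

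*Slc25a15*, the ornithine carrier of the urea cycle, had 2 fed and 5 fasted PPARα peaks, with 3 fasted-only sites in introns 2 and 3. BCL6, PPARα and PPARδ met there at 1 site, 2118 bp upstream. *Slc25a48*, described as a choline carrier, had 1 fed and 5 fasted PPARα peaks and no BCL6 peak in C57BL/6 livers. This was the largest excess of fasted over fed PPARα peaks in the family. *Slc25a22*, a glutamate carrier, went the other way, with 3 fed PPARα peaks and 1 fasted peak, all in introns 1 to 4. None held BCL6 in C57BL/6 livers, and the site in intron 3 held it in fed *Bcl6* fl/fl livers. At a site in exon 1 of *Slc25a45*, outside the coding sequence, PPARα was called in both states. BCL6 was called there in fasted but not in fed C57BL/6 livers, and also in fed *Bcl6* fl/fl livers. *Slc25a38*, which carries glycine for heme synthesis, and *Slc25a44*, which carries branched-chain amino acids, had 1 PPARα site each.

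Adenine nucleotide carriers, which move ADP and ATP or ATP-Mg and phosphate, had 27 sites at 5 of 9 genes. *Slc25a5*, which encodes the ADP/ATP carrier ANT2, had 5 fed and 7 fasted PPARα peaks, 2 fed peaks and 1 fasted peak of BCL6, and 1 fed PPARδ peak. The muscle isoform *Slc25a4* had none in any list. *Slc25a17*, the peroxisomal carrier of cofactors such as coenzyme A, had 4 fed BCL6 peaks and 1 fasted peak, beside 5 fed and 4 fasted PPARα peaks. It was the only member with 5 or more sites and no PPARδ peak. 2 of its 9 sites lay inside the neighboring gene *St13*.

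*Slc25a25*, a calcium-regulated ATP-Mg/phosphate carrier, had 4 fed and 2 fasted BCL6 peaks and 4 PPARα peaks in either state. 4 of its 5 sites held BCL6 and PPARα together, including the promoter site 186 bp upstream of a TSS, and PPARδ joined them in fed livers at the site in intron 4. *Slc25a23*, a related carrier, had 3 fed PPARα peaks and 1 fasted peak, and its BCL6 peak in intron 3 was called only in fed livers. *Slc25a31*, an ADP/ATP carrier of the testis, had a site of BCL6 and PPARα 3830 bp upstream in both feeding states.

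The 4 phosphate and uncoupling protein-like carriers had 11 sites, of which *Slc25a30* had 7. *Slc25a30* encodes a carrier related to the uncoupling proteins. It had 5 fed and 3 fasted BCL6 peaks, 5 fed and 7 fasted PPARα peaks, and 3 fed peaks and 1 fasted peak of PPARδ. 3 upstream sites held all 3 factors, at 3623 bp, 6331 bp and 16138 bp. In intron 4, 15712 bp downstream, was the only site of the family where BCL6 was called solely in the fed state and PPARα solely in the fasted state. This pattern made up 2.13% of the carrier sites shared by BCL6 and PPARα, beside 5.72% of such sites at all genes. The phosphate carrier *Slc25a3*, *Slc25a14* and *Slc25a27* each had PPARα at their promoter solely in the fasted state.

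Di- and tricarboxylate carriers had 9 sites at all 4 genes. *Slc25a10* exchanges malate and succinate for phosphate and had 6 of them, with 6 fed and 5 fasted PPARα peaks, 3 fed peaks and 1 fasted peak of BCL6, and 3 fed and 2 fasted PPARδ peaks. The citrate carrier *Slc25a1* had only a fed PPARδ site, 205 bp upstream. *Slc25a11*, the oxoglutarate carrier, and *Slc25a21*, the oxoadipate carrier, each had a single PPARα site, called solely in the fasted state. Among the other groups, the glutathione carrier *Slc25a39* had 3 fed PPARα peaks and 1 fasted peak and no BCL6 peak in C57BL/6 livers. The iron carriers, which supply heme synthesis, had 1 site at *Slc25a28* and 3 at *Slc25a37*. 1 site of *Slc25a37* held all 3 factors, with BCL6 called solely in the fasted state and PPARδ solely in the fed state. *Slc25a34*, *Slc25a43* and *Slc25a46* had 2 sites each, all of them with PPARα and none with BCL6 in C57BL/6 livers.

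**Figure D3:**
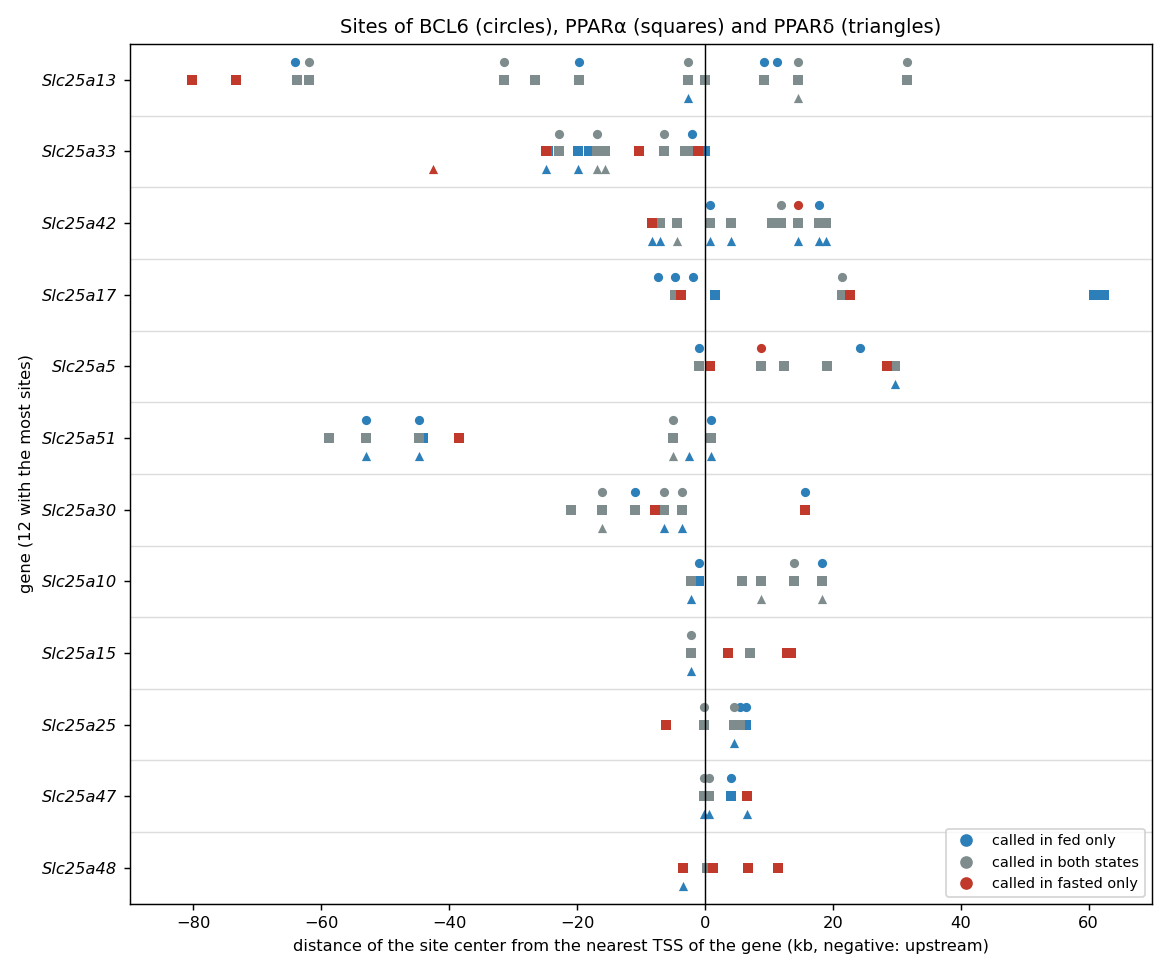
Sites of BCL6 (circles), PPARα (squares) and PPARδ (triangles) around the 12 *Slc25a* genes with the most sites (rows), by distance of the site center from the nearest TSS of the gene (x axis, kb, negative upstream), colored by the feeding state in which the factor was called. PPARδ was called solely in the fed state at 7 of its 8 sites at *Slc25a42*, and *Slc25a33* had all but 1 of its 14 sites upstream.

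Fewer peaks of BCL6 and PPARδ, and more of PPARα, were called beside the carriers in the fasted than in the fed liver. BCL6 had 49 fed and 29 fasted peaks, a difference of -40.8%, where peaks at all genes together differed by -36.6%. PPARδ had 37 and 12, or -67.6%, beside -67.4% over all genes. PPARα had 91 and 108, or 18.7%, beside 39.4% over all genes. This last difference depended on how peaks were assigned, since counting a peak for every gene with a TSS within 100 kb gave 195 fed and 295 fasted PPARα peaks at carriers, or 51.3%. The 39.4% over all genes was not recounted in this way, so the 51.3% has no like value beside it. These are counts of peaks called over pooled libraries of unknown depth, with no replicate error, so none of the differences was tested.

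Gene by gene, 13 of the 19 carriers with a BCL6 peak had fewer in fasted livers, 3 had more (*Slc25a36*, *Slc25a37* and *Slc25a45*) and 3 had the same number. Over all genes with a BCL6 peak in either state, 60.1% had fewer in fasted livers and 11.7% had more. For PPARδ, 13 of 16 carriers had fewer peaks in fasted livers and 0 had more, beside 75.1% and 10.4% over all genes. For PPARα, 18 of 32 carriers had more peaks in fasted livers and 7 had fewer, beside 59.1% and 12.7%. Those 7 were *Slc25a10*, *Slc25a17*, *Slc25a22*, *Slc25a23*, *Slc25a32*, *Slc25a33* and *Slc25a39*. At *Slc25a32* the 2 fed PPARα peaks fell in 1 site, which was also called in fasted livers, so no site was lost there.

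With the fed and fasted peaks of each factor merged into sites, 24 of 54 BCL6 sites (44.4%, 32.0% to 57.6%) were called in both states, beside 44.5% of all BCL6 sites. A further 25 (46.3%) were called solely in the fed state, beside 43.9% of all BCL6 sites, and 5 (9.26%) solely in the fasted state, beside 11.6%. The share of carrier BCL6 sites absent from the fasted list was thus close to that over all genes. PPARα had 72 of 126 sites in both states (57.1%, 48.4% to 65.4%), beside 51.0% of all PPARα sites. Of the rest, 18 (14.3%) were fed only, beside 12.1% of all PPARα sites, and 36 (28.6%, 21.4% to 37.0%) were fasted only, beside 36.9%. PPARδ had 27 of 39 sites solely in the fed state (69.2%, beside 70.7% of all PPARδ sites), 10 in both states (25.6%, beside 19.3%) and 2 solely in the fasted state (5.13%, beside 9.99%).

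**Figure D4:**
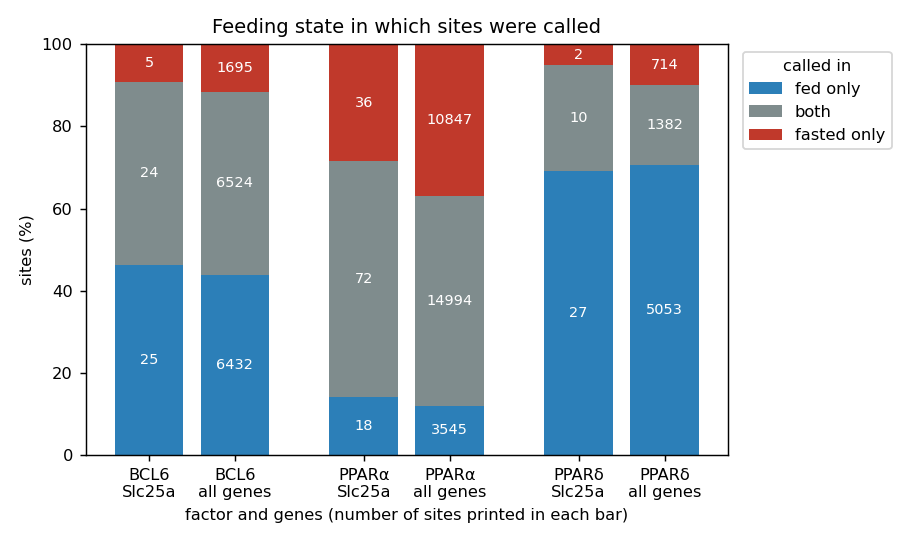
Share of sites (y axis, percent) called only when fed, in both states or only when fasted, for each factor, at *Slc25a* genes and at all genes (x axis), with the number of sites printed in the bars. The carriers had 25 of 54 BCL6 sites, 18 of 126 PPARα sites and 27 of 39 PPARδ sites solely in the fed state.

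BCL6 and PPARα were largely called at the same places. Of 54 BCL6 sites at carrier genes, 47 (87.0%, 75.6% to 93.6%) also held PPARα, beside 78.3% of all BCL6 sites. The centers of the BCL6 and PPARα peaks were a median of 12 bp apart at these 47 sites, under 50 bp at 45 of them, and at most 185 bp. Each of the 19 carrier genes with a BCL6 peak in C57BL/6 livers also had a PPARα peak, a count for which no share over all genes is given here. PPARδ sites held PPARα at 36 of 39 (92.3%, 79.7% to 97.3%), beside 85.6% of all PPARδ sites. *Slc25a1* was the only member with PPARδ and no PPARα peak.

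Across the 136 sites, 18 (13.2%) held all 3 factors, at 10 genes, where 11.9% of all sites did. BCL6 and PPARα without PPARδ made 29 sites (21.3%, beside 22.3%). PPARα and PPARδ without BCL6 made 18 (13.2%, 8.54% to 20.0%, beside 6.34%), 5 of them at *Slc25a42* and 3 at *Slc25a33*. PPARα alone made 61 (44.9%, beside 47.1%), BCL6 alone 7 (5.15%, beside 9.28%) and PPARδ alone 3 (2.21%, beside 2.86%). No site held BCL6 and PPARδ without PPARα (0% to 2.75%), a combination found at 70 of the 33495 sites near all genes.

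At the 47 sites shared by BCL6 and PPARα, both factors were called in both feeding states at 23 (48.9%, beside 44.7% of such sites at all genes). BCL6 was called solely in the fed state while PPARα was called in both states at 14 (29.8%, beside 24.9%). These included sites at *Slc25a10*, *Slc25a13*, *Slc25a42* and *Slc25a51*. Both were fed only at 4 (8.51%, beside 7.54%), and BCL6 was fasted only beside PPARα in both states at 4 (8.51%, beside 7.54%). PPARα sites called in both states held BCL6 at 41 of 72 (56.9%, 45.4% to 67.7%), whereas PPARα sites called solely in the fasted state held it at 2 of 36 (5.56%, 1.54% to 18.1%). Over all genes these shares were 58.9% and 12.4%. The 2 were at *Slc25a30* and *Slc25a36*. PPARδ was called, in either state, at 29 of the 72 PPARα sites in both states (40.3%) and 6 of the 36 fasted-only sites (16.7%), beside 34.2% and 6.68% over all genes. Among these 6, PPARδ was called in the fasted state solely at *Slc25a37*. At those of *Slc25a33*, *Slc25a42*, *Slc25a46*, *Slc25a47* and *Slc25a48* it was called solely in the fed state, where PPARα was not called.

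The fed *Bcl6* fl/fl livers gave another view of BCL6 in the same feeding state. Of the 49 fed C57BL/6 BCL6 peaks at carriers, 36 (73.5%, 59.7% to 83.8%) were also called there, beside 70.3% of such peaks at all genes. Of the same 49 peaks, 24 (49.0%, 35.6% to 62.5%) were also called in fasted C57BL/6 livers, beside 50.4% over all genes. In the other direction, 36 of the 65 floxed peaks (55.4%, 43.3% to 66.8%) were called in fed C57BL/6 livers, beside 60.8% over all genes. BCL6 sites called in both states were called in the floxed livers at 21 of 24, and those called in fed C57BL/6 livers only at 15 of 25. Of the 5 BCL6 sites called only in fasted C57BL/6 livers, 2 were called in fed floxed livers, at *Slc25a5* and *Slc25a45*. These counts by state were made for carrier sites only, so they do not show whether the carriers differed from other genes. The carriers with the most BCL6 peaks found in floxed livers only were *Slc25a33*, with 4, and *Slc25a13*, with 3. A call in a single list can therefore fail to appear in another triplicate of fed control livers, which differed in genotype as well.

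Most carrier sites were away from promoters, defined as the 1000 bp before and the 100 bp after a TSS. By this definition 18 of 136 sites were at the promoter of their own gene (13.2%, 8.54% to 20.0%), beside 15.5% of all sites. A further 57 were in introns, 50 of them in the gene they were assigned to and 24 of these in intron 1. Another 54 were intergenic, 6 lay in a UTR and 1 lay in a coding exon, exon 4 of *Slc25a17*. The median distance to the TSS was 7594 bp, beside 10547 bp for all sites, and 53.7% of carrier sites were within 10 kb, beside 48.8%. 9 sites were inside another gene, 5 of them in *Shb*.

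The 18 promoter sites belonged to 15 genes, *Slc25a1*, *Slc25a3*, *Slc25a5*, *Slc25a10*, *Slc25a11*, *Slc25a13*, *Slc25a14*, *Slc25a23*, *Slc25a25*, *Slc25a27*, *Slc25a33*, *Slc25a34*, *Slc25a38*, *Slc25a39* and *Slc25a47*. PPARα was called at 17 of them, in both states at 8, solely in the fasted state at 5 and solely in the fed state at 4. BCL6 was called at 5 promoter sites, those of *Slc25a5*, *Slc25a10* and *Slc25a25* and 2 of *Slc25a47*, each with PPARα. PPARδ was called at 4. The promoter site was the only site of 5 genes, *Slc25a1*, *Slc25a3*, *Slc25a11*, *Slc25a14* and *Slc25a38*. Promoters made up 9.26% of carrier BCL6 sites (4.02% to 19.9%) and 13.5% of carrier PPARα sites (8.60% to 20.5%), beside 6.26% and 16.8% over all genes.

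Windows of 200 bp at the site centers were searched on both strands for DR1, 2 copies of AGGTCA with any 1 base between them and up to 2 mismatches. A match was found at 29 of the 136 carrier sites (21.3%, 15.3% to 28.9%), beside 13.4% of all sites and 3.15% of windows 1000 bp to either side of all sites. All 29 matches were at sites with PPARα, which was called at 126 of the 136 sites. Over all genes, 4074 of the 4499 sites with a match held PPARα. By combination, a match stood at 8 of the 18 sites with all 3 factors (44.4%, 24.6% to 66.3%, beside 19.0% of such sites at all genes). It stood at 6 of 18 sites of PPARα and PPARδ (33.3%, beside 26.0%), 12 of 61 of PPARα alone (19.7%, beside 12.5%) and 3 of 29 of BCL6 and PPARα (10.3%, beside 10.7%). With 1 mismatch fewer, 5.15% of carrier sites held a match.

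**Figure D5:**
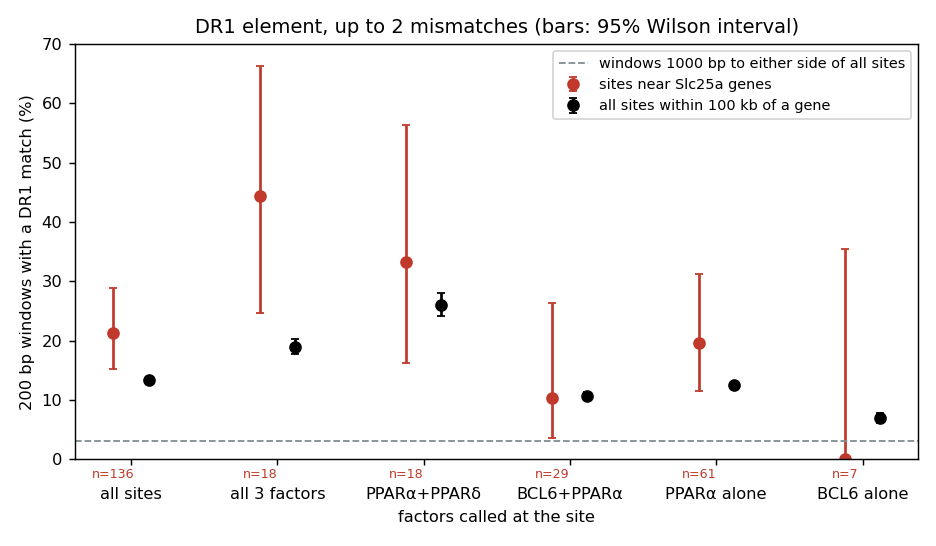
Share of 200 bp windows with a DR1 match (y axis, percent) by the factors called at the site (x axis), for sites near *Slc25a* genes (red, number of sites below the axis) and all sites within 100 kb of a gene (black), with 95% Wilson intervals, and for windows 1000 bp away (dashed line). Carrier sites with all 3 factors had a match at 44.4%, and the interval ran from 24.6% to 66.3%.

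The BCL6 element TTCCTAGAA, with up to 1 mismatch, was found at 6 of 136 carrier sites (4.41%, 2.04% to 9.29%), beside 9.53% of all sites and 7.13% of windows 1000 bp away. Of the 54 carrier sites with BCL6, 5 held it (9.26%, 4.02% to 19.9%), beside 15.0% of all BCL6 sites. These were 1 site each of *Slc25a5*, *Slc25a10*, *Slc25a13*, *Slc25a17* and *Slc25a30*. The exact element was present at 0 of the 136 sites.

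The cells behind these values could not be separated, since whole liver was used. Hepatocyte marker genes had sites at 5 of 5 (*Alb*, *Apoa1*, *Ttr*, *Hnf4a* and *Cps1*, 54 sites) and the Kupffer cell genes at 1 of 4 (*Adgre1*, 1 site; *Clec4f*, *Vsig4* and *Marco* had none). Of B cell genes, *Cr2* had 3 sites, and *Cd79a* and *Ms4a1* had none. A peak beside a gene is not a measure of its expression.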

How the data were processed

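ChIP-seq reads were aligned by the authors to mm10 with Bowtie, keeping uniquely mapped reads and a single read per position, and peaks were called with HOMER over replicates against input, with DESeq2 applied to the replicate tags. The deposited lists hold chromosome, start and end in bp and no count, score or p-value. Sequencing depth is therefore unknown, and a site is either called or not. The carrier genes and all lists of genes were chosen with earlier results of these data known.

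TSSs were the 5′ ends of 84748 RefSeq mRNAs of 21774 protein-coding genes on GRCm38. Peak centers were assigned to the nearest TSS within 100 kb. Centers within 200 bp were joined by single linkage. The nearest TSS is a convention, and a site can act on another gene. Genes described in full were the 12 with the most sites and those whose peak count of a factor differed by 2 or more between feeding states. Genes with a site at their own promoter and genes without peaks were listed, apart from items that are not reported here, and the remaining members were given by transport group. Sequences shown were limited to 6. The functions were tested on simulated positions and sequences. Alternatives covered the reach, TSS set, joining distance, promoter window, mismatches and scan window. The remaining ChIP-seq samples of the series were not used here. Python 3.11.15, NumPy 2.4.6, pandas 2.3.3, SciPy 1.17.1 and Matplotlib 3.10.9 were used.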

Additional observations from a re-analysis of the deposited data

How the results depend on the processing

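Alternative settings gave 161 values for 35 results. Of these, 147 stayed within 1.5 times of the main count or within the interval of the main share, and 14 moved. Counting a peak for every gene with a TSS within 100 kb raised the peaks at carriers to 107 for fed BCL6, 73 for fasted BCL6, 149 for BCL6 in fed *Bcl6* fl/fl livers, 195 for fed PPARα, 295 for fasted PPARα, 73 for fed PPARδ and 21 for fasted PPARδ. It raised the genes with a peak to 36 for fed BCL6, 32 for fasted BCL6 and 29 for fed PPARδ. The values over all genes were not recounted under this rule, so the shares of all genes given above do not apply to it. A promoter of 1000 bp to either side of the TSS held 20.6% of sites. DR1 was found at 5.15% of sites with 1 mismatch fewer and at 14.0% in windows of 100 bp, and the exact BCL6 element at 0. Curated transcripts alone, an alternative chosen after seeing the data, moved no count by over 1.5 times. No paired analysis was possible because each list combines its 3 replicates, and for the same reason no replicate could be left out. Depth is unknown for every list, so its part in differences between lists was not tested.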

Other observations

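Mitochondrial transport genes without an *Slc25a* symbol also had sites. The mitochondrial pyruvate carrier consists of *Mpc1* and *Mpc2*. *Mpc1* had 10 sites, with 6 BCL6 peaks in either feeding state, 7 fed and 9 fasted PPARα peaks, and 3 fed peaks and 1 fasted peak of PPARδ. *Mpc2* had 6 sites, with 3 fed BCL6 peaks and 1 fasted peak, and 4 fed and 5 fasted PPARα peaks. *Ucp3*, an uncoupling protein known chiefly from muscle, had 3 sites, with 3 PPARδ peaks in either state, 2 fed and 3 fasted PPARα peaks, and BCL6 only in fed *Bcl6* fl/fl livers, with 1 peak. *Ucp2* had a single site, of fed BCL6. *Mtch2*, an outer membrane protein of the carrier fold, had 5 sites. *Ucp1* and *Mtch1* had no peak in any list.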
